A study of Mus musculus with 12 samples.

Results

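The mitochondrial respiratory chain was followed through 82 genes, of 15964 genes that the 3 chips name. A gene belonged to the set if a probe set on chip A, B or C had a single platform gene symbol that begins with Nduf, Uqcr, Atp5, Cox4, Cox5, Cox6, Cox7 or Cox8, or is Sdha, Sdhb, Sdhc, Sdhd, Cyc1 or Cycs. These genes had 148 probe sets, and each gene was represented by its probe set with the highest mean over the 4 populations, with the others kept as a check. Of the representative probe sets, 67 are from chip A, 7 from B and 8 from C. By name, 32 genes encode subunits of complex I, 7 are complex I assembly factors (Ndufaf), 4 belong to complex II, 8 to complex III, 1 is cytochrome c, 16 carry cytochrome c oxidase (complex IV) names, and 14 belong to ATP synthase. Cox7a2l, a protein that joins complexes III and IV into supercomplexes, bears a complex IV name without being one of its regular subunits.

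The chain carries electrons from NADH (complex I) and succinate (complex II) through ubiquinone, complex III and cytochrome c to oxygen at complex IV, pumps protons on the way, and lets ATP synthase make ATP from the gradient. In the pancreatic β cell, glucose oxidation feeds this chain, and the ATP it yields closes ATP-sensitive potassium channels, which depolarizes the membrane and opens the way for calcium-triggered insulin release. Most subunits are encoded in the nucleus and a few in mitochondrial DNA. Nuclear respiratory factor 1 (NRF1), the ETS factor GABP, YY1 and the estrogen-related receptor ERRα are known regulators of the nuclear genes.

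All cells were of the MIN6 line, which derives from a mouse insulinoma of β cells, grown without further treatment in high-glucose medium. Pr-LP denotes parental cells after 17 to 20 passages and Pr-HP the same cells after 35 to 40. Clone 4 is a single subclone, obtained by limiting dilution of low-passage parental cells, and was used after 17 to 20 passages as C4-LP and after 40 to 50 as C4-HP. The study calls Pr-LP, C4-LP and C4-HP responder cells because they secrete insulin in response to glucose, and Pr-HP non-responder cells because they have lost this response. Each population was measured once on each of the chips A, B and C, 12 Affymetrix U74v2 arrays in all. The comparison asks whether transcripts of the chain that glucose oxidation feeds differ between cells with and without the response.

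The intensities of a chip had nearly equal medians in the 4 populations, from 213.7 to 215.5 units on chip A, with 161.9 to 162.7 for B and 92.8 to 93.2 for C. With 1 array per population and chip, the number of arrays limits the precision, the 3 responder populations stand for 3 conditions rather than replicates of one, and Pr-HP cannot be told apart from its own culture or hybridization. The sources used here do not say whether any arrays came from separate cultures, so the spread between them may be partly technical. In RNA from whole cultures, fewer cells of a type and less RNA per cell cannot be told apart. Of 12 β-cell markers 6 had a probe set, all 6 were above the floor in every population, and their summed intensity ranged from 26432 to 28772, a sum carried by Ins2 and Iapp. Below, 3 responder values in a row stand in the order Pr-LP, C4-LP, C4-HP. Single β-cell markers did move, with Pcsk1, the prohormone convertase, at 425, 760 and 771 against 1379 in Pr-HP. Slc2a2, the glucose transporter GLUT2, stood at 1754 in C4-HP and at 464 to 499 elsewhere, and the transcription factor Pdx1 was lowest in Pr-HP (519, against 570 to 701). Of 4 α-cell markers 2 had a probe set. Glucagon (Gcg), the hormone of α cells, stood at 502, 3175 and 2915 in the responder cells, with 10552 in Pr-HP, whereas Irx2 read 47.5, 81.9 and 68.3 against 42.3 and exceeded the floor on 2 arrays. Of 5 macrophage markers, Cd68 was at 1785 in Pr-HP and between 177 and 210 in the responder cells, Csf1r, Adgre1 and Cd14 differed little between populations and Lyz2 was at the floor. The sums of the duct, acinar, delta cell, PP cell, fibroblast and endothelial markers were no higher in Pr-HP than in the highest responder population. The Gapdh quotient of 3′ over 5′ control probe sets, a sign of RNA integrity, had its minimum in Pr-HP on every chip (0.867, 0.953 and 1.16 on A, B and C, against at least 0.968, 1.01 and 1.19 in the responder cells). For Actb this quotient had its minimum in Pr-HP on A (1.15) and B (1.28), while on C it stood at 1.34 in Pr-HP and 1.30 in C4-LP. The part of these differences in the values that follow was not tested.

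Promoter windows of the members, each 250 bases before to 50 after a transcription start, were taken from RefSeq on GRCm38.p6, and 67 of the 82 genes matched. They are shown because many respiratory chain promoters hold the same short motifs. Searched on both strands, the NRF1 letters GCGCATGC were in 12 of 72 member windows (16.7%) and in 2.71% of all 32851 windows. The ETS letters CCGGAAG, as bound by GABP, were in 18 member windows (25%) against 8.86% of all windows. The YY1 letters AAGATGGC were in 10 (13.9%) against 2.75%, and the ERR letters TCAAGGTCA in 1 (1.39%) against 0.423%. At least 1 of the 4 was in 33 member windows (45.8%) and in 13.7% of all windows. The YY1 letters contain ATG and can overlap a start codon, and the NRF1 letters nearly read the same on both strands, so that matches can overlap each other. A match describes letters in a window and not a bound site.

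The following 200-base stretches, 170 before to 30 from the start on, belong to genes named in the comparison described next. They are a selection and do not reflect the share of windows with a motif. Cox6a1 is not among the 10 members with the largest difference. Of those 10, the windows of Atp5md and Ndufs4 held motif letters and those of Uqcr10 and Cox5b held none, and these are not printed. Capitals mark the letters of a motif. Sdhb, the iron-sulfur subunit of complex II, holds NRF1 letters at -54 and ETS letters at 7, counting the start as 1. Cox6a1, a complex IV subunit, holds 2 overlapping NRF1 matches at -162 and -160 and ETS letters at -16. Cycs, cytochrome c, holds NRF1 letters at -60. Ndufa6, a complex I subunit and the one with the largest difference toward the responder cells, holds NRF1 letters at -83. Ndufa3, another complex I subunit, holds YY1 letters at 23. Cox5a, the complex IV subunit with the largest difference of all members, holds none of the 4 motifs here.
Sdhb, chr4:140961101-140961300 (+ strand, GRCm38.p6): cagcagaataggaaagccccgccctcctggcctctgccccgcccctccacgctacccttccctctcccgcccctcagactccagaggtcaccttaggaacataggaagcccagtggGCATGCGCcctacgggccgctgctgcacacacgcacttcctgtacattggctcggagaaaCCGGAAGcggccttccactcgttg
Cox6a1, chr5:115348929-115349128 (- strand, GRCm38.p6): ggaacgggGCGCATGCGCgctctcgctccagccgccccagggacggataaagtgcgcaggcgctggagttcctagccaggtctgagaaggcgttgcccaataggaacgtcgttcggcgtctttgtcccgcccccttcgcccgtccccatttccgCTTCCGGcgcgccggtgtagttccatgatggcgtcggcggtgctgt
Cycs, chr6:50566540-50566739 (- strand, GRCm38.p6): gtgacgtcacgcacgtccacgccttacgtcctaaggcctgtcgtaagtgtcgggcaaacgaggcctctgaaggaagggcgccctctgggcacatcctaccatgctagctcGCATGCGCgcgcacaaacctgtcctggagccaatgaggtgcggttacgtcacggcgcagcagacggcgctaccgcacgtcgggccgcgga
Ndufa6, chr15:82354262-82354461 (- strand, GRCm38.p6): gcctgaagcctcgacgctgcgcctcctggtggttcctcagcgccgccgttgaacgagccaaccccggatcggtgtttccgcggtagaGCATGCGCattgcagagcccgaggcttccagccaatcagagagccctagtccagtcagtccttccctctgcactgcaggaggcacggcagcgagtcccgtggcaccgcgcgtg
Ndufa3, chr7:3617203-3617402 (+ strand, GRCm38.p6): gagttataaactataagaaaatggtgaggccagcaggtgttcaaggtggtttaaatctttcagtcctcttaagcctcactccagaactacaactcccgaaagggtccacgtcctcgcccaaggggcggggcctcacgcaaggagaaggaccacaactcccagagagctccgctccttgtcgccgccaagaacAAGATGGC
Cox5a, chr9:57521062-57521261 (+ strand, GRCm38.p6): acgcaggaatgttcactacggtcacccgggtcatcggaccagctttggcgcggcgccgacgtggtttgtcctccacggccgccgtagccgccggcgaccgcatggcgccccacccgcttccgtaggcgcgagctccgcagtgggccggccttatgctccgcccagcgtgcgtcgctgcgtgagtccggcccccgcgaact

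No respiratory chain transcript passed the test between responder cells and Pr-HP, but the Pr-HP value was the highest of the 4 more often than among genes at large. Of the 82 genes 79 were tested on their brightest probe set, 77 of them with all 4 arrays above the 40th percentile of their chip. The brightest sets of the other 3, Cox7a1 (26.5 to 38.1 units), Cox8a (36.6 to 41.7) and Atp5j2 (78.1 to 88.4), did not exceed that percentile on any array. Atp5j2 had another set on chip C that was tested, at 82.8, 71.8 and 80.2 against 79.9 in Pr-HP (log2 difference -0.03), while Cox7a1 and Cox8a have no other set. The tested genes were bright, with a median intensity of 1266 against 361 for all 12267 genes tested. Intensities ran lower on chips B and C than on A, the chip of 67 of the 82 brightest sets. The part of chip scale in this gap was not tested. In limma, fitted over 23340 probe sets, 0 of the 118 tested respiratory chain probe sets had an adjusted p under 0.05, against 19 of all probe sets (0.0814%). The smallest adjusted p of a member was 0.257. At an unadjusted p under 0.05, 5 of 79 genes (6.33%) were higher in Pr-HP, namely Atp5d, Atp5md, Cox5a, Ndufs7 and Sdhb, against 5.7% of all genes, and 0 were higher in the responder cells, against 4.24%. The count toward Pr-HP is near the share among all genes.

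The differences were small and leaned one way. The responder log2 mean was below Pr-HP for 58 of 79 genes (73.4%), against 50.1% of all genes tested. The median log2 difference, responder minus Pr-HP, was -0.09, which is a Pr-HP value 1.06 times the responder value, with quartiles of -0.23 and 0.01 and a range from -0.90 to 0.49. The median over all genes was 0.00. Taken singly, the median log2 ratio to Pr-HP was -0.16 for Pr-LP, -0.12 for C4-LP and -0.07 for C4-HP. The value in Pr-HP was above all 3 responder values for 41 genes (51.9%), against 29.6% of all genes, and below all 3 for 6 (7.59%), against 27.7%. These 6 were Atp5g1, Atp5g2, Cox6b1, Cox6b2, Ndufa1 and Ndufa6, Ndufa1 being named after its values were seen.

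**Figure D1:**
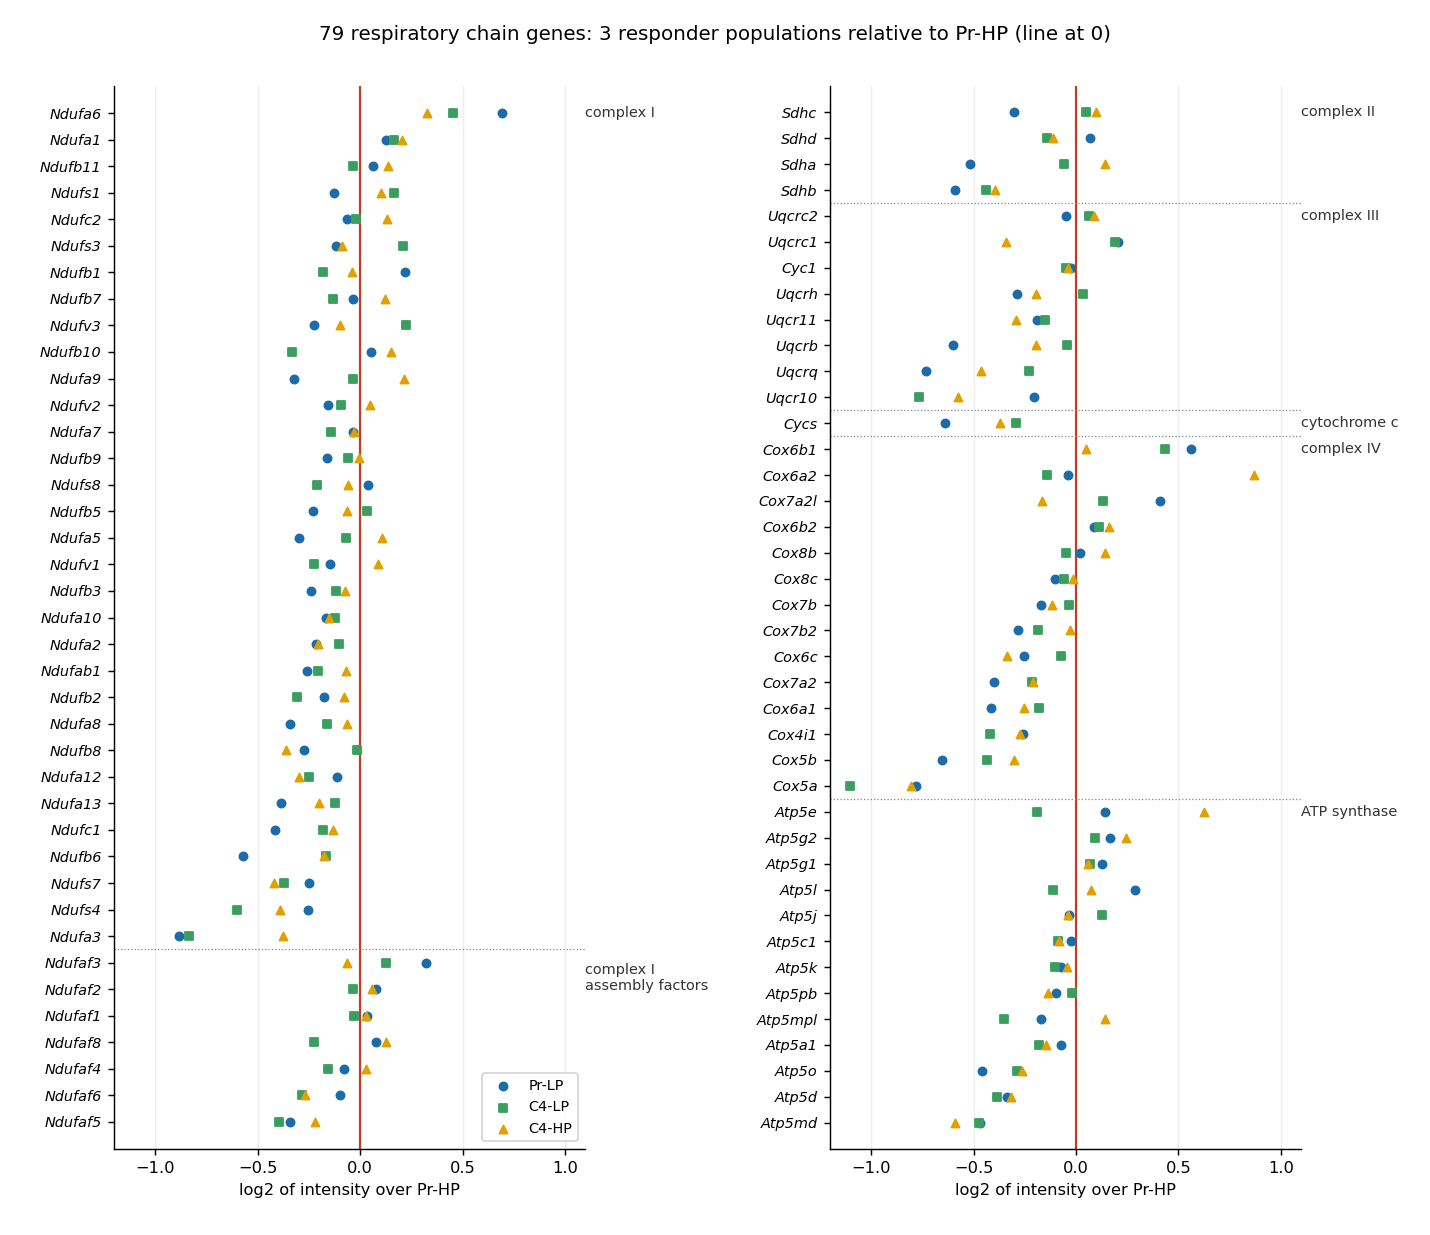
Each row is 1 of the 79 tested genes, grouped by complex, and each point the log2 of a responder population's intensity over the Pr-HP intensity, with Pr-HP as the line at 0. For 41 genes all 3 points lie left of the line and for 6 all lie right of it, and most points are within 0.5 of it.

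The order was alike among bright genes and with each responder population left out. Among 4329 genes with a mean of at least 505, the lower quartile of the members, Pr-HP was the highest for 33 of 59 members (55.9%) against 29.5% of these bright genes, and the lowest for 2 (3.39%) against 27.3%. The limit of 505 was the same for all chips, whose scales differ. Pr-HP exceeded both remaining responder values for 44 genes without Pr-LP (55.7%, against 37.7% of all genes), for 46 without C4-LP (58.2%, against 36.1%) and for 51 without C4-HP (64.6%, against 35.6%). With the arrays quantile-normalized the count was 38 of 79. Over the 58 genes whose probe set name carries no letter for shared or relaxed probes it was 30. The remaining 21 genes stand on probe sets with such a letter, whose probes may also match related transcripts or pseudogenes. For the quantile-normalized arrays and for probe set names without a letter, no share over all genes was taken. Genes of 1 complex are not independent of each other in these cells, so no test was put on these shares.

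The lowest value fell mostly to the low-passage cells. Pr-LP was the lowest for 33 members (41.8%, against 26.7% of all genes) and C4-LP for 29 (36.7%, against 25.6%). C4-HP was the lowest for 11 of 79 members, against 2424 of 12267 genes, and Pr-HP for 6 (7.59%, against 27.7%). C4-HP had the highest value for 20 of 79 members (2498 of 12267 genes), Pr-LP for 12 (3320) and C4-LP for 6 (2824).

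**Figure D2:**
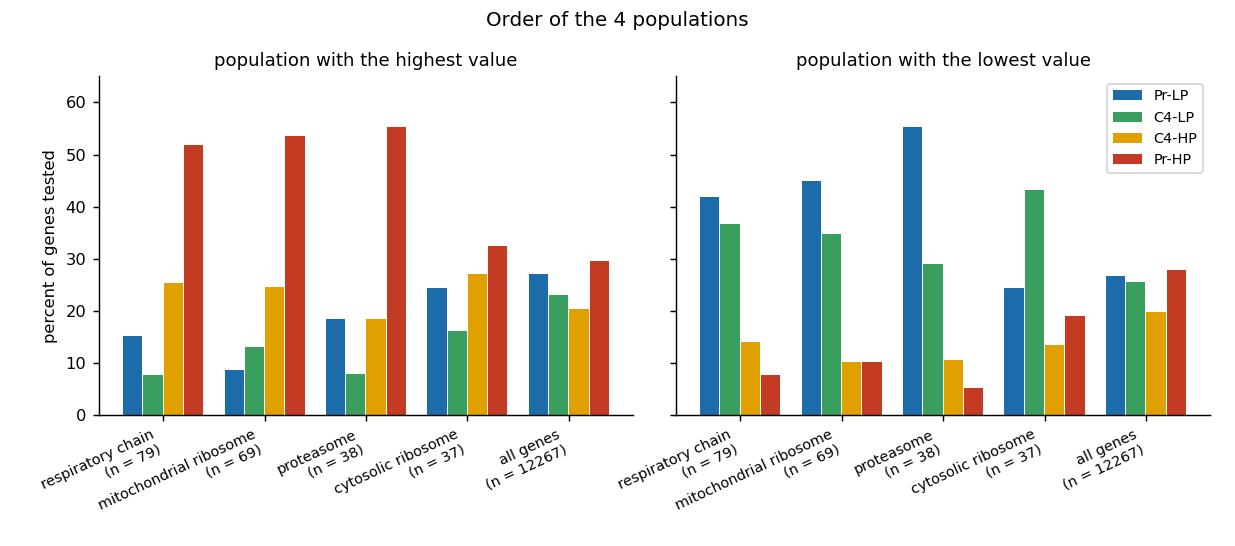
Bars give the percentage of tested genes for which each population had the highest (left) or the lowest (right) of the 4 intensities, for 5 groups of genes with the number tested below. Pr-HP is the highest for 51.9% of the respiratory chain genes and 29.6% of all genes.

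By the arithmetic means, 2 of 79 members (2.53%) were over 1.5-fold higher in Pr-HP than in the responder cells, Cox5a and Ndufa3, against 3.86% of all genes. None was over 1.5-fold higher in the responder cells, against 3.99%. None passed 2-fold, 3-fold or 5-fold in either direction. The last 2 of these are the limits the study used to pick its genes. It applied them to listed intensities that differ from the deposited values used here, so the folds are not on the same scale.

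Complex I, which takes electrons from NADH, had a median log2 difference of -0.09 over 32 genes, with Pr-HP the highest for 16 and the lowest for 2. Ndufa3, an accessory subunit of the membrane arm, read 826, 855 and 1174 against 1526 in Pr-HP. All 3 responder values were below Pr-HP, and C4-HP lay between the low-passage cells and Pr-HP. The responder mean was 952 ± 193 (SD, n = 3 populations) and Pr-HP was 1.60 times as high, with a log2 difference of -0.70 (SE 0.25; limma adjusted p = 0.511). Its second probe set gave less, with 164, 180 and 209 against 208, a log2 difference of -0.18 with C4-HP level with Pr-HP. Ndufs4, an accessory subunit of the NADH-oxidizing module that is needed for a stable complex, read 244, 192 and 223 against 292 in Pr-HP. Its log2 difference was -0.42 (SE 0.16; limma adjusted p = 0.513). A second probe set read 140, 142 and 147 against 209, but it entered the test through the Pr-HP array alone, so it had to place Pr-HP at the top and is no check. Ndufs7, which holds the last iron-sulfur cluster before ubiquinone, stood at 1027, 945 and 913 against 1221, a log2 difference of -0.35 (SE 0.12; limma adjusted p = 0.483).

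Ndufa6 ran the other way. This accessory subunit, which binds the acyl carrier protein Ndufab1, read 475, 401 and 368 against 294 in Pr-HP. Pr-HP was the lowest, and both high-passage populations were below their low-passage counterparts. The responder mean of 415 ± 54.4 was 1.41 times Pr-HP, a log2 difference of 0.49 (SE 0.18; limma adjusted p = 0.527). A second probe set of the gene read 187, 184 and 194 against 181, a log2 difference of only 0.06.

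Among the complex I assembly factors the values were lower and showed no common order, with a median of -0.01 over 7 genes and Pr-HP the highest for 2. Ndufaf5, of the methyltransferase family, read 125, 120 and 135 against 158 in Pr-HP (log2 difference -0.32). Ndufaf3 read 574, 501 and 439 against 459 in Pr-HP (0.13), so that Pr-HP fell within the responder range. All 7 assembly factors together gave Pr-LP as the highest population for 3 and C4-LP as the lowest for 6.

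Complex II, succinate dehydrogenase, showed 1 subunit apart from the other 3. Sdhb, which carries the iron-sulfur clusters, read 1153, 1281 and 1321 against 1738 in Pr-HP. The responder cells lay close together at 1251 ± 87.5, and Pr-HP was 1.39 times their mean (log2 difference -0.48, SE 0.13; limma adjusted p = 0.42). Its second probe set read 247, 255 and 299 against 442, a log2 difference of -0.74 in the same order of populations. Sdha, the flavoprotein, read 117, 161 and 185 against 168. Sdhc and Sdhd, the membrane anchors, read 1793, 2287 and 2368 against 2213, and 2178, 1880 and 1917 against 2075. For these 3 subunits Pr-HP lay inside the responder range.

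Complex III, which passes electrons from ubiquinol to cytochrome c, had a median of -0.18 over 8 genes, with Pr-HP the highest for 5 and the lowest for none. The small subunits Uqcr10 and Uqcrq had the largest differences from Pr-HP in this complex. Uqcr10 read 2124, 1441 and 1643 against 2451 in Pr-HP, a log2 difference of -0.52 (SE 0.25; limma adjusted p = 0.615). Uqcrq, also called the ubiquinone-binding protein QP-C, read 4796, 6796 and 5788 against 7975, or -0.48 (SE 0.23; limma adjusted p = 0.608). The responder spread of both was wide, with SDs of 351 and 999.7 around means of 1736 and 5793. Uqcrb read 1152, 1699 and 1528 against 1749, so Pr-HP barely exceeded C4-LP. Cyc1, the heme-bearing cytochrome c1, read 5490, 5393 and 5438 against 5579 on its brightest set and 3125, 4119 and 3847 against 4033 on the other (log2 differences -0.04 and -0.14), so Pr-LP was apart only on the other. The core protein Uqcrc2 varied little, at 803, 867 and 884 against 831.

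Cytochrome c itself, the mobile carrier encoded by Cycs, read 166, 210 and 199 against 258 in Pr-HP. Pr-HP was the highest and 1.35 times the responder mean of 191.5 ± 23.2 (log2 difference -0.44, SE 0.18; limma adjusted p = 0.555).

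**Figure D3:**
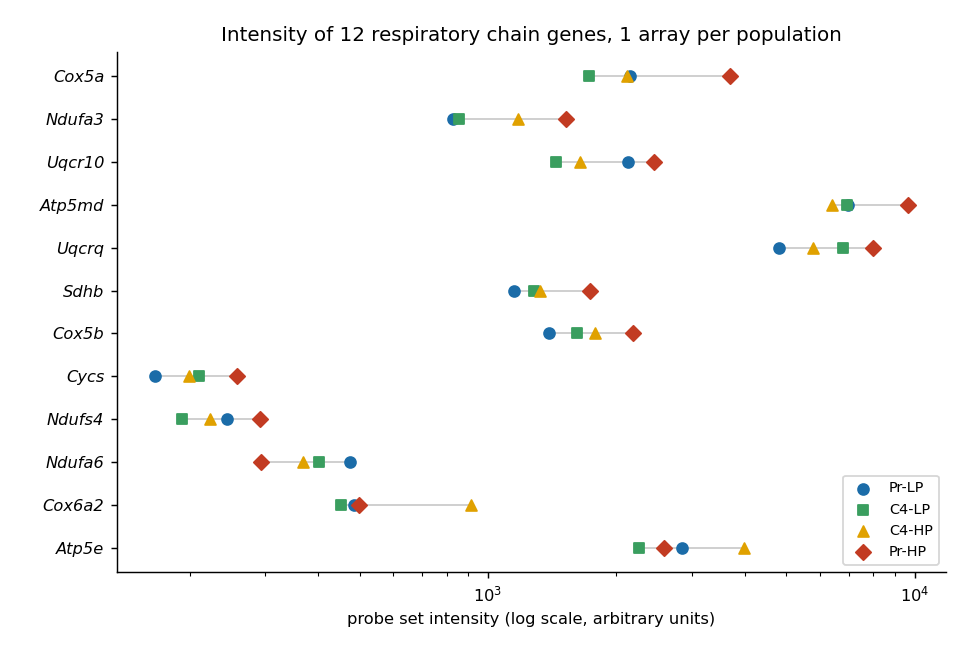
Points give the probe set intensity, in arbitrary units on a log axis, of 12 genes in the 4 populations, 1 array each. Pr-HP is the rightmost point for the upper 9 genes and the leftmost for Ndufa6, and C4-HP stands apart for Cox6a2 and Atp5e. Rows cannot be compared with each other.

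Complex IV, which reduces oxygen, had a median of -0.14 over 14 tested genes, with Pr-HP the highest for 9 and the lowest for 2. Cox5a, which together with Cox5b and Cox4i1 surrounds the catalytic core, gave the largest difference of all members. It read 2149, 1721 and 2116 against 3695 in Pr-HP, so Pr-HP stood well above 3 similar responder values. Pr-HP was 1.85 times the responder mean of 1995 ± 239, a log2 difference of -0.90 (SE 0.16; limma adjusted p = 0.257). The other 2 probe sets of Cox5a, at 96.6 to 102 and 30.8 to 34.2 units, were below the 40th percentile and show nothing of this. Cox5b read 1389, 1617 and 1777 against 2189 (log2 difference -0.46, SE 0.18; limma adjusted p = 0.538), again with no overlap. Cox4i1 read 506, 452 and 501 against 605 on its brightest probe set (-0.32), but 279, 270 and 287 against 245 on the next (0.18), so its direction depends on the probe set.

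Several complex IV subunits exist in forms that differ by tissue, and the forms did not share 1 order. Cox6a1, the widespread form, read 4402, 5180 and 4918 against 5875 in Pr-HP, and its second set 244, 289 and 313 against 446, with log2 differences of -0.28 and -0.67. Cox6a2, the form of heart and skeletal muscle, read 486, 452 and 911 against 498, so C4-HP alone stood out. Cox6b1, the widespread form, read 329, 301 and 230 against 223 in Pr-HP (0.35), but 296, 252 and 261 against 258 on its second set (0.06), with Pr-HP inside the responder range. Cox6b2, the testis form, read 234, 238 and 247 against 221 (0.12). Cox7a2 read 3605, 4108 and 4114 against 4763 in Pr-HP (-0.28) and its second set gave 0.26, while Cox7a1, the muscle form, was too dim to test. The supercomplex factor Cox7a2l read 1743, 1438 and 1168 against 1310. Cox7b and Cox7b2 (log2 differences -0.11 and -0.17) had Pr-HP at the top, as did Cox8c (-0.06), the testis form, by narrow margins. Cox8b, the muscle form, read 402, 383 and 436 against 396. Cox8a, the widespread form, was also too dim to test. Values of different probe sets cannot be set against each other, so these readings do not say which form prevails.

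ATP synthase had a median of -0.07 over 13 tested genes, with Pr-HP the highest for 7 and the lowest for 2. Atp5md, a small subunit that helps hold synthase dimers together, read 6980, 6944 and 6403 against 9649 in Pr-HP. The responder values were close (6775 ± 323) and Pr-HP was 1.42 times their mean, a log2 difference of -0.51 (SE 0.11; limma adjusted p = 0.352). Atp5d, the δ subunit of the central stalk, read 773, 747 and 786 against 978 (-0.35, SE 0.10; limma adjusted p = 0.449). Its other 4 tested sets did not share 1 direction, with log2 differences from -0.23 to 0.08, the lowest of these on a set that entered the test through Pr-HP alone. Atp5e, the ε subunit of the same stalk, read 2844, 2258 and 3971 against 2578 in Pr-HP, with C4-HP the outlying population. Atp5g1 and Atp5g2, separate genes for the same ring subunit c, read 805, 773 and 768 against 736 and 716, 682 and 757 against 639. Both had Pr-HP as the lowest, with responder means 1.06 and 1.12 times Pr-HP. The other set of Atp5g1 gave -0.06. Of the other sets of Atp5g2, 1 read 301, 270 and 286 against 231 (0.31), and 1 gave -0.15 but entered the test through Pr-HP alone.

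Single populations were then set against each other, by passage and by line, with 1 array a side and thus no test. These 4 pairs share populations and are not independent. In parental cells the members were mostly higher at high passage, with a median log2 ratio of Pr-HP over Pr-LP of 0.16 against 0.00 for all genes. Over 1.5-fold higher in Pr-HP were 7 members (8.86%, against 5.62% of all genes), Cox5a (1.72), Cox5b (1.58), Cycs (1.56), Ndufa3 (1.85), Sdhb (1.51), Uqcrb (1.52) and Uqcrq (1.66). Over 1.5-fold lower was 1 (1.27%, against 4.94%), Ndufa6 at 0.62. After quantile normalization only Cox5a, Ndufa3, Cycs and Ndufa6 were past this limit. In clone 4 the passage difference was smaller, with a median of 0.04. Higher in C4-HP than in C4-LP by over 1.5-fold were 2 members (2.53%, against 2.16%), Cox6a2 (2.02) and Atp5e (1.76), and lower were 0 (against 3.23%). Complex III differed between the lines, with medians of 0.20 in parental cells and -0.15 in clone 4, a difference that was not tested.

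Of the 79 members, 37 were higher at high passage in both lines (46.8%, against 25.1% of all genes). Lower in both were 6 (7.59%, against 23.4%), and 36 went opposite ways (45.6%, against 51.4%). At low passage no member was over 1.5-fold higher (against 5.38% of all genes) or lower (against 4.01%) in clone 4 than in parental cells, and the median was 0.02. At high passage the median log2 ratio of C4-HP over Pr-HP was -0.07. Over 1.5-fold higher in C4-HP were Atp5e (1.54) and Cox6a2 (1.83), 2.53% against 3.84% of all genes, and over 1.5-fold lower were Atp5md (0.66) and Cox5a (0.57), 2.53% against 4.59%.

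**Figure D4:**
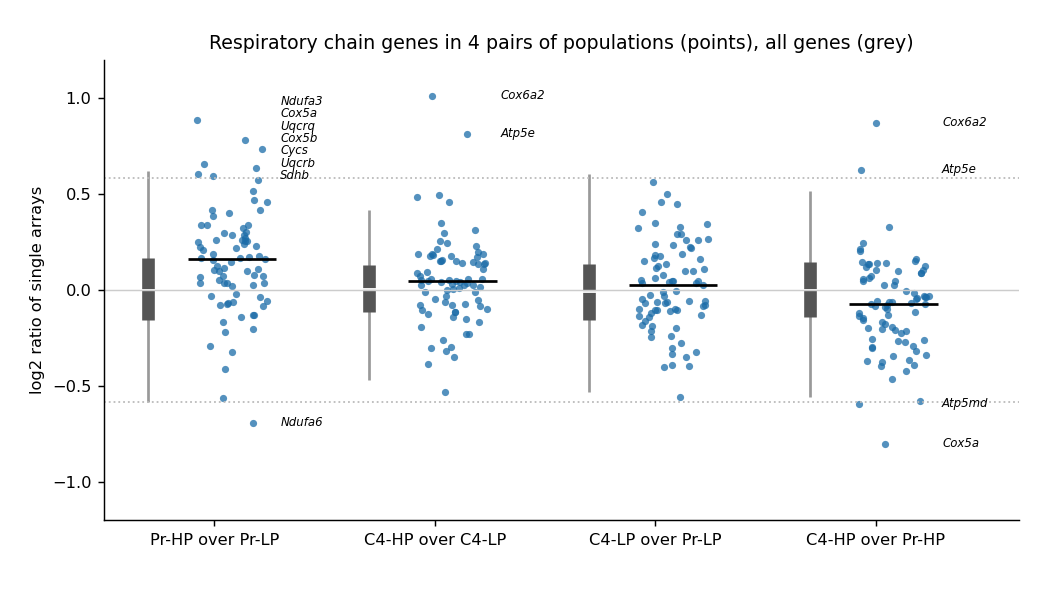
Points are the log2 ratios of the 79 tested genes in 4 pairs of populations, with a black line at their median, beside the median (white), quartiles (dark bar) and 5th to 95th percentile (grey line) of all 12267 genes tested. Dotted lines mark 1.5-fold, and members past it are named, with crowded names moved up. The median lies highest, at 0.16, for Pr-HP over Pr-LP.

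Second probe sets gave a check within the gene. Of the 82 members 41 had 1 probe set and 41 several, and 28 had at least 2 that were tested. All sets of a gene were higher in Pr-HP for 12 genes, all were higher in the responder cells for 5 (Cox6b1, Cox6b2, Ndufa6, Ndufaf3 and Uqcrc1), and 11 genes had sets of both directions. All sets placed Pr-HP above every responder population for 7 genes, Atp5c1, Cox6a1, Cox8c, Ndufb2, Ndufc1, Ndufs4 and Sdhb, of which Atp5c1, Ndufb2 and Ndufc1 are named after their values were seen. Of the 118 tested sets 5 entered through 1 array alone, 3 of them through Pr-HP. Without these, a comparison chosen after seeing the data, 26 genes had at least 2 sets. All were then higher in Pr-HP for 11 genes and in the responder cells for 5, with 10 of both directions. All sets placed Pr-HP on top for 6, Ndufs4 no longer among them. No gene had sets opposed by over 1.5-fold. Counted over every tested probe set, Pr-HP was the highest for 55 of 118 (46.6%). The counts of this paragraph were not taken over all genes or all probe sets, so no background share stands beside them.

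**Figure D5:**
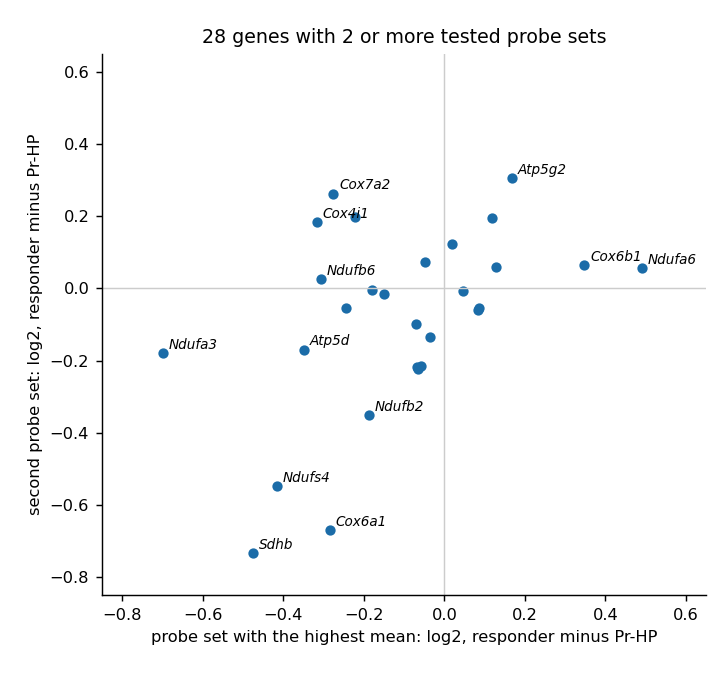
Points are the 28 genes with at least 2 tested probe sets, with the log2 difference, responder minus Pr-HP, of the brightest set on the horizontal axis and of the second brightest on the vertical axis. Sdhb and Cox6a1 are far below 0 on both axes, as is Ndufs4, whose second set entered the test through Pr-HP alone, while Cox4i1 and Cox7a2 have opposite signs.

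Members were also set side by side by the motif letters in their promoter windows, with no test. Among tested members with a window, those with at least 1 of the 4 motifs had Pr-HP the highest for 15 of 31 and a median log2 difference of -0.08, and those without had 16 of 33 and -0.09. With NRF1 letters Pr-HP was the highest for 7 of 12 and the median -0.13, without them for 24 of 52 with -0.09. With ETS letters it was the highest for 6 of 17 (35.3%) with a median of -0.06, and without them for 25 of 47 (53.2%) with -0.10. With YY1 letters the count was 6 of 9 (66.7%) and the median -0.22, and without them 25 of 55 (45.5%) and -0.08.

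Other mitochondrial genes gave a backdrop. No gene of the lists named here was called by limma. At an unadjusted p under 0.05 in either direction stood 9.94% of all genes tested, the background for the counts that follow. Of 46 assembly factors outside the rule, 35 were tested, 4 with an unadjusted p under 0.05 (11.4%), with a median log2 difference of -0.03 and Pr-HP the highest for 11. Higd2a, a complex IV assembly factor, read 713, 1068 and 1208 against 1640 in Pr-HP (log2 difference -0.75, SE 0.34; limma adjusted p = 0.588). Pet100, which also serves complex IV assembly, read 1693, 1425 and 1709 against 2578 (-0.68, SE 0.15; limma adjusted p = 0.342). Of 25 genes for electron entry and shuttles, 21 were tested, 2 with an unadjusted p under 0.05 (9.52%), and the median was -0.08 with Pr-HP the highest for 10. Nnt, the transhydrogenase that makes mitochondrial NADPH, read 183, 244 and 212 against 130 in Pr-HP, the lowest of the 4 (0.70, SE 0.20; limma adjusted p = 0.428). It entered the test through the responder arrays alone, its Pr-HP value being below the 40th percentile of chip A (152.7). Of 14 genes for carriers, porins and uncoupling, 11 were tested, 2 with an unadjusted p under 0.05 (18.2%), with a median of -0.08 and Pr-HP the highest for 4.

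Of 23 genes for mitochondrial DNA upkeep and regulators, 17 were tested, 1 with an unadjusted p under 0.05 (5.88%), and the median was -0.03 with Pr-HP the highest for 8. Esrra, which encodes ERRα, was even across the responder cells at 593, 598 and 603 and stood at 822 in Pr-HP (log2 difference -0.46, SE 0.10; limma adjusted p = 0.342). Nrf1 read 1049, 1159 and 1054 against 1080, Gabpa 156, 108 and 131 against 121, and Tfam, which packages and transcribes mitochondrial DNA, 131, 134 and 135 against 125. Gabpa entered the test through the Pr-LP array alone. Ppargc1a, the coactivator PGC-1α, was at the floor in all 4 populations. None of the 13 subunits encoded in mitochondrial DNA had a probe set under a symbol used here.

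The mitochondrial ribosome and the proteasome had orders like that of the respiratory chain, and the cytosolic ribosome did not lean as far. Of 69 tested mitochondrial ribosomal genes (Mrpl and Mrps), Pr-HP was the highest for 37 (53.6%) and the lowest for 7, with a median log2 difference of -0.14 and 8 genes (11.6%) at an unadjusted p under 0.05. Of 38 proteasome subunits, Pr-HP was the highest for 21 (55.3%) and the lowest for 2, with a median of -0.19 and 5 (13.2%) at an unadjusted p under 0.05. Of 37 cytosolic ribosomal genes, Pr-HP was the highest for 12 (32.4%) and the lowest for 7, with a median of -0.02 and 2 (5.41%) at an unadjusted p under 0.05. The last 2 lists were added after values had been seen. A lean toward Pr-HP thus appeared in lists other than the respiratory chain.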

How the data were processed

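Total RNA of the 4 MIN6 populations was labeled with biotin and hybridized to Affymetrix U74v2 chips A, B and C. The deposited values are 1 linear intensity per probe set and array, which the authors made with the GeneChip software. The sources used here do not give the summarization of probes or the scaling of arrays, so values were used unscaled. Control probe sets (198 of 36899) were left out. Of the other 36701, 29131 had 1 gene symbol in the platform annotation, 724 several and 6846 none.

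Values under the 20th percentile of a chip (67.3, 58.6 and 29.1 units on A, B and C) were raised to it, log2 was taken, and the mean of the responder populations was set against Pr-HP within each chip, using limma 3.58.1 (R 4.3.3). Probe sets with at least 1 array above the 40th percentile were tested, with Benjamini-Hochberg adjustment over the 3 chips. Residual degrees of freedom were 2. The fit was also run on simulated independent arrays, with a floor of 1.0 unit and no filter. These settings differ from those of the main fit, so that run is no check of the p-values given here. Counts of order and folds between populations were computed in Python 3.11.15 with pandas 2.3.3, without a test. Each member's SD is over the 3 responder populations.

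The members and gene lists were chosen with earlier results of these data known, and the ribosomal and proteasome lists after values were seen. Named were members that limma called, the 10 with the largest log2 difference, the extremes of each complex, members past 1.5-fold in a pair of populations, Sdha to Sdhd, Cyc1 and Cycs, members that are alternative forms of a subunit, members whose probe sets opposed each other by over 1.5-fold, list genes past 1.5-fold, and 5 regulators. Alternatives changed the floor, the filter, the scaling, the probe set of a gene, the populations included and the use of a term for cell line.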

Additional observations from a re-analysis of the deposited data

How the results depend on the processing

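Among the respiratory chain probe sets limma called 0 under each of the 9 alternative fits, and the 10 members with the largest differences kept their direction under all of them, with adjusted p from 0.171 to 0.814. Over all probe sets the 19 calls became 32 with a floor of 1.0 unit and 108 with no filter. They became 0 with the floor at the 40th percentile (2511 at an unadjusted p under 0.05, against 2285). When a responder population was left out, 0 to 3 calls were left, namely 0 without Pr-LP (2446), 3 without C4-LP and 0 without C4-HP (1696). The cause was not tested. The members' median log2 difference of -0.086 was -0.159 with the replicate block, which sets Pr-LP alone against Pr-HP, and -0.127 to -0.084 when a responder population was left out, and it stayed within 1 SD over the responder populations (0.044) under the others. Of the members past 1.5-fold, the 8 between Pr-HP and Pr-LP became 4 after quantile normalization and 0 past 2-fold, the 2 between C4-HP and C4-LP became 1 past 2-fold, the 0 between C4-LP and Pr-LP became 1 (Uqcr10) after quantile normalization, and the 4 between C4-HP and Pr-HP became 0 past 2-fold. The share of members with Pr-HP the highest, 51.9%, ran from 46.6% (55 of 118, every probe set on its own) to 54.9% (39 of 71, without assembly factors and Cox7a2l), over alternatives chosen in part after seeing the data. The share over all genes was not taken again under these alternatives. The arrays carry no replicate numbers, and small differences of single populations were not resolvable with 1 array each.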

Other observations

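Some subunits stand only on probe sets that the platform annotation gives several symbols, often a gene and a pseudogene or copy, and were left out of the counts. There were 16 such probe sets with a respiratory chain symbol, 14 of them tested, with a median log2 difference (responder minus Pr-HP) of -0.10, Pr-HP the highest for 8 and the lowest for 2. A probe set shared by Ndufs6, a zinc-binding subunit of complex I, and its copy Ndufs6b read 1704, 2183 and 2488 in the responder cells (Pr-LP first, then C4-LP, then C4-HP) against 2809 in Pr-HP, and a second one 2790, 3398 and 3394 against 3786. A probe set shared by Cox7c, a complex IV subunit, and Gm12338 read 7009, 8274 and 9875 against 9520, so that its highest value was in C4-HP. A probe set for Ndufs5 and its pseudogene read 2250, 2195 and 2126 against 2397. These probe sets were chosen for print after their values were seen.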
